A study of Mus musculus with 14 samples.

Results

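A set of 10 genes outside the classic meiotic programme was followed across mouse primordial germ cells, from which eggs and sperm later form: Cited1, Zbtb18, Pwwp2b, Greb1l, Osbpl6, Ccdc172, Lonrf2, Spdya, Tsc22d3 and Zfp503. They were selected on these same arrays for large rises in XX cells at embryonic day (E) 12.5 or E13.5, with no stated threshold, so that their XX values and their XX against XY differences below are descriptions without a test. The 10 genes are 10 of the 18194 measured, and are read by 22 probe sets that list a single gene symbol, of 45101 probe sets on the array. Another Spdya probe set lists another gene as well and was left out.

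The study measured RNA on Affymetrix expression arrays in 14 samples, 2 in each of 7 groups, which the labels call biological replicates. Unsexed cells form 3 groups (E9.5, E10.5 and E11.5), joined by 4 sexed ones: XX (female) and XY (male) cells at E12.5 and at E13.5. Cells from E10.5 onward came from BDF1 females crossed to stella-EGFP transgenic males of a mixed B6/CBA background. Stella (Dppa3) is a germ cell gene, and the cells were taken from trypsinised genital ridges by sorting on this reporter, so every E10.5 to E13.5 group carries the transgene. The 2 E9.5 samples are C57BL/6, came from an earlier study and were normalized together with the rest. For E9.5, RNA was made with another kit and amplified with 22 rather than 12 cycles of PCR, and no sort is described. Each sample used 5 ng of RNA, given as equal to 500 cells. E9.5 levels are therefore given as values only, since age, strain and protocol cannot be told apart there.

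Primordial germ cells settle in the genital ridges and stay bipotential until the gonad takes a sex. In a developing ovary, bone morphogenetic protein (BMP) signals and retinoic acid lead XX germ cells into meiotic prophase, with Stra8 among the first genes to come on, while XY germ cells in a developing testis are held back from meiosis and stop dividing. Many genes outside the meiotic machinery change in XX cells over the same days. The 10 genes described here fall into regulators of transcription (Cited1, Zbtb18, Zfp503, Greb1l, Tsc22d3), a chromatin protein (Pwwp2b), proteins of lipid transfer and protein turnover (Osbpl6, Lonrf2), a kinase activator (Spdya) and a coiled-coil protein (Ccdc172). Spdya is itself known for work in meiotic prophase, so the group is not wholly free of meiosis.

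Promoters are shown for 4 of the genes because they stand for the different patterns found: higher values in XX cells at E12.5 and higher again at E13.5 (Cited1), higher values with age in both sexes (Ccdc172) and, in XX cells, most (Spdya) or all (Tsc22d3) of the height above E11.5 at E13.5 rather than E12.5. Each is the RefSeq window of 250 bases before to 50 bases after the outermost start that the promoter table lists on build GRCm38.p6, written 5′ to 3′ on the gene's strand, with motif matches in capitals. The windows are chrX:102252132-102252431 on the minus strand for Cited1, chr19:58511735-58512034 on the plus strand for Ccdc172, chr17:71551811-71552110 on the plus strand for Spdya and chrX:140600473-140600772 on the minus strand for Tsc22d3. The Spdya window lies inside the annotated span of the gene, which begins further upstream.
Cited1: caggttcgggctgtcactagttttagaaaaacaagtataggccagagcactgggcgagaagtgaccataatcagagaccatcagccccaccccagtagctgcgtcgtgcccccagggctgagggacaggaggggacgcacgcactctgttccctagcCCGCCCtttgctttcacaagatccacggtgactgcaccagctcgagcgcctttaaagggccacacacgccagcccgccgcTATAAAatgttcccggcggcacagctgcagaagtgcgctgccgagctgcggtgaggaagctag
Ccdc172: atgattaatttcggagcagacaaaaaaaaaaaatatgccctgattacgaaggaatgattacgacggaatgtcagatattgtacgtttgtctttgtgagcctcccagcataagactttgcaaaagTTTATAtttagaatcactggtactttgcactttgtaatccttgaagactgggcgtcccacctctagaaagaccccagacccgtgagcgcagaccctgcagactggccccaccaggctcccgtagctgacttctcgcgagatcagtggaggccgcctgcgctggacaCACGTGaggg
Spdya: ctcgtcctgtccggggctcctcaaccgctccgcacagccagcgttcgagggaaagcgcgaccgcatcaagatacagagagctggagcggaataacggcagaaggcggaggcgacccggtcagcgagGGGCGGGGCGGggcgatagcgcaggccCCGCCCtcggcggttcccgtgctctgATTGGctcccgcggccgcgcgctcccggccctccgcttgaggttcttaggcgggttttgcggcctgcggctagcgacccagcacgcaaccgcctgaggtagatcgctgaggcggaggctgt
Tsc22d3: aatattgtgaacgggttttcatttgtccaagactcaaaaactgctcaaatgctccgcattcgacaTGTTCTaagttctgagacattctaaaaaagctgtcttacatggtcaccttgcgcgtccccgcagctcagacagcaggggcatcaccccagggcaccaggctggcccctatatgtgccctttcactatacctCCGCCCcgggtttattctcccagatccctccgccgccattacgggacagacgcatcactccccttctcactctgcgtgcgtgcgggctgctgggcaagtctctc

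The motifs were searched on both strands, and 8 of the 10 genes had a window among 27025 genes with one. In Cited1 the capitals mark a GC box (GGGCGG, here as CCGCCC) and a TATA motif (TATAAA). In Ccdc172 they mark a reversed TATA motif and an E-box (CACGTG). In Spdya they mark GC boxes, of which the first pair overlaps by 1 base, and a reversed CCAAT motif, and in Tsc22d3 a reversed steroid receptor motif (AGAACA) and a GC box. These letters are common: GC boxes stood in 35.9% of all promoters and in 5 of the 8 windows, CCAAT in 38% and 1 of 8, AGAACA in 19% and 1 of 8, TATAAA in 14.2% and 2 of 8, GGCGCC (a GC-rich SMAD motif) in 12% and 2 of 8, and CACGTG in 7.24% and 1 of 8. An E2F motif (TTTCCCGC, in 1.11% of promoters), a nuclear receptor motif (AGGTCA, 16%) and a cAMP response element (TGACGTCA, 1.85%) were not found in the 8 windows. A match is a stretch of letters, not a measured binding site.

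The windows lay on the CpG-rich side of the genome. Their ratio of observed to expected CpG ran from 0.68 in Cited1 to 1.05 in Spdya, against a median of 0.39 over all genes, and each of the 8 exceeded at least 68.5% of promoters. The share of G and C ran from 48.7% in Ccdc172 to 81.7% in Zbtb18, against a median of 52.7%. These values describe the annotated starts, and which start the germ cells use was not measured. No test was made.

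**Figure D1:**
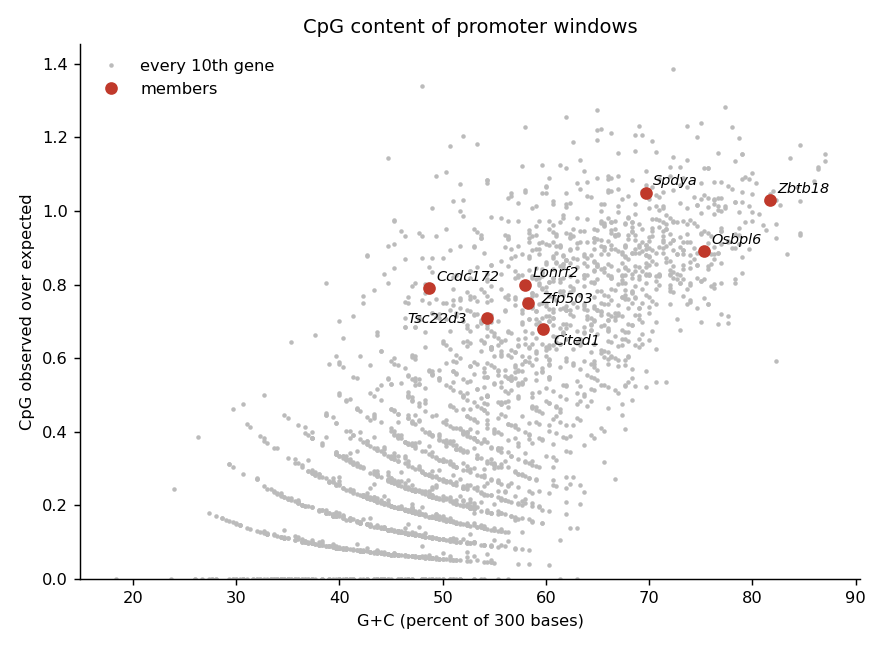
CpG observed over expected (y axis) against the percent of G and C (x axis) in 300-base promoter windows. Each red point is 1 of the 8 genes with a window and each grey point is every 10th of 27025 genes. All red points lie above the overall median of 0.39.

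All values that follow are deposited log2 signals, where a difference of 1 is 2-fold. A level is called dim when it lies under the table's overall median of 4.72, and any fold over such a level is a ratio of signals rather than of transcript amounts. Signals of different probe sets are not set against each other. The array medians lay between 4.66 and 4.80, and replicate arrays correlated across genes with r between 0.961 and 0.981 (Pearson, over genes, which are not independent). Summed germ cell markers stayed between 14.89 and 15.53 on the log2 scale in every group, and Dppa3, the source of the sort reporter, between 13.09 and 13.76. Blood markers were high at E9.5 (13.68 to 14.58) and E10.5 (11.28 to 11.72) and at most 8.91 later. The sexes of the labels were borne out by the Y-linked Kdm5d, which read 1.44 to 3.04 on XX and 6.87 to 7.66 on XY arrays. Eif2s3y, also Y-linked, read 10.67 to 11.53 on XY and 1.61 to 2.58 on XX arrays apart from E13.5 XX replicate 1, which read 5.93. Without that array, the XX against XY difference at E13.5 ran from 0.74 in Zbtb18 to 4.57 in Pwwp2b over the 10 genes, and values that moved are given below.

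RNA integrity also differed between arrays. The 3′ minus 5′ difference of the Gapdh control probe sets, which grows as RNA is cut or copied incompletely, was 3.09 on E13.5 XX replicate 2, 3.16 on E13.5 XY replicate 2 and 2.53 on E11.5 replicate 2, and 0.21 to 1.57 on the others. The E13.5 groups of both sexes each hold 1 such array. In samples of pooled cells, fewer cells that express a gene and less RNA per cell cannot be told apart.

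**Figure D2:**
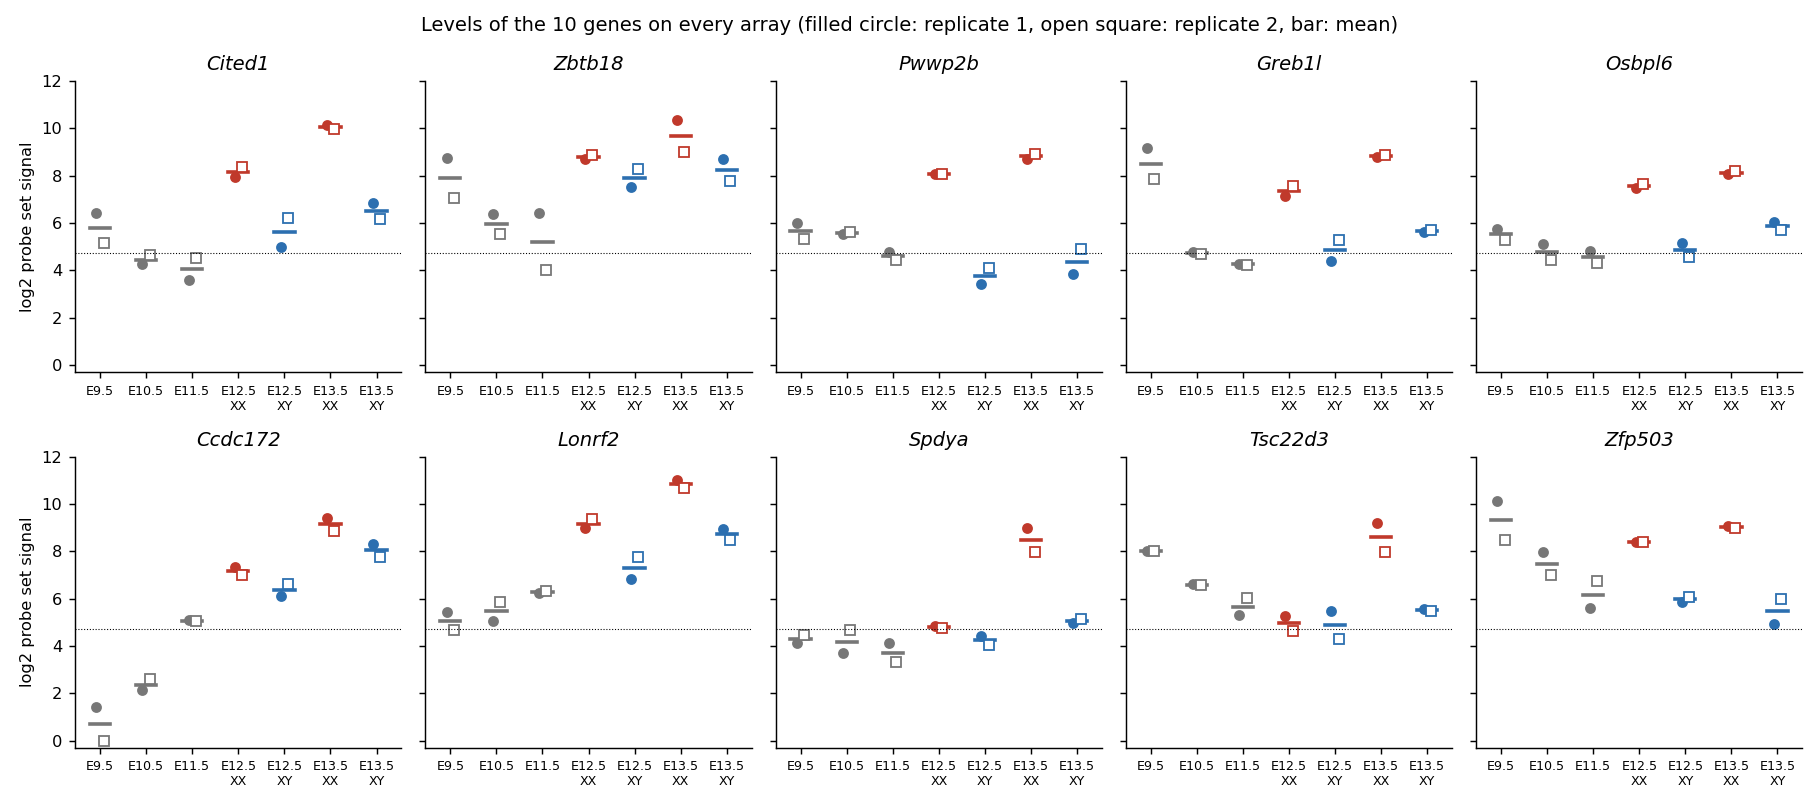
Log2 signal of the 10 genes (y axis) in the 7 groups (x axis), with a filled circle for replicate 1, an open square for replicate 2 and a bar for their mean. Grey is unsexed, red XX and blue XY, and the dotted line is the table median of 4.72. Pwwp2b stays low in XY cells, Spdya and Tsc22d3 are high in XX cells at E13.5 and not at E12.5, and Ccdc172 is higher at E13.5 than at E12.5 in both sexes.

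Cited1 encodes a coactivator that binds CBP and p300 and has no DNA-binding domain of its own, and it lies at chrX:102247378-102252181 (GRCm38.p6). It read 4.26 and 4.63 at E10.5 and 3.57 and 4.52 at E11.5, all dim, after 6.41 and 5.15 at E9.5. XX cells then read 7.96 and 8.35 at E12.5 and 10.15 and 9.99 at E13.5, while XY cells read 5 and 6.23, then 6.85 and 6.17. Both ages of XX cells thus lay above every other array, and E13.5 above E12.5. The XX level was 4.11 (standard error, SE, 0.44) above E11.5 at E12.5, place 2 of 18194 genes, and gained 1.91 (SE 0.44) by E13.5. Over XY, the XX level was higher by 2.54 (SE 0.44) at E12.5 and 3.56 (SE 0.44) at E13.5, that is 11.8-fold. XY cells at E12.5 stood 1.57 (SE 0.44) above the same dim E11.5 arrays, a difference that was not tested, and overlapped the E9.5 pair.

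Zbtb18 encodes a zinc finger repressor of transcription known from the developing cortex, at chr1:177442351-177450764. It was uneven before the sexes part, with 8.75 and 7.04 at E9.5, 6.39 and 5.54 at E10.5 and 6.42 and 4 at E11.5. At E12.5 it read 8.70 and 8.89 in XX and 7.54 and 8.29 in XY cells, and at E13.5 it read 10.37 and 8.99 in XX and 8.71 and 7.79 in XY cells. The sexes did not overlap at either age, yet lay close, and XY cells also stood above E11.5. The difference from E11.5 to E12.5 was 3.59 (SE 0.71) in XX and 2.70 (SE 0.71) in XY cells, both against the same E11.5 pair. Of the 10 genes it was the one with the widest replicate spread. Without E11.5 replicate 2, which has the raised Gapdh difference, the XX difference was 2.38, and without replicate 1 it was 4.80. The XX against XY difference was 0.88 (SE 0.71) at E12.5 and 1.43 (SE 0.71) at E13.5, the latter 0.74 without E13.5 XX replicate 1. With the Gapdh difference as covariate, the XX difference from E11.5 to E12.5 was 2.94 and the sex difference at E13.5 was 1.24.

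Zfp503, a zinc finger regulator of transcription from the NET family, known from striatum and limb, lies at chr14:21983959-21989601. It was highest at E9.5 (10.15 and 8.47) and read 7.97 and 6.98 at E10.5 and 5.59 and 6.73 at E11.5. XX cells read 8.41 and 8.40 at E12.5 and 9.08 and 8.97 at E13.5, whereas XY cells read 5.88 and 6.08, then 4.95 and 5.99. The XX arrays of both ages lay above all E10.5, E11.5 and XY arrays, but not above E9.5, and the E12.5 XX level followed lower ones at E10.5 and E11.5. Greb1l and Tsc22d3 were also high at E9.5, where blood markers summed to between 13.68 and 14.58, and the part of that signal in these levels was not tested. XX was 2.24 (SE 0.44) above E11.5 at E12.5, and exceeded XY by 2.42 (SE 0.44) at E12.5 and 3.55 (SE 0.44) at E13.5. Its other probe set also read higher in XX than in XY cells, by less: 1.16 at E12.5 and 1.78 at E13.5.

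Greb1l is a relative of Greb1, a coactivator induced by estrogen, and is known for its need in kidney development. Its coordinates on GRCm38.p6 are chromosome 18, 10324933 to 10562945. It read 9.15 and 7.86 at E9.5, 4.78 and 4.67 at E10.5 and 4.27 and 4.23 at E11.5. In XX cells it read 7.15 and 7.55 at E12.5 and 8.81 and 8.89 at E13.5, and in XY cells 4.41 and 5.29, then 5.60 and 5.71. The XX arrays stood clear of the E10.5, E11.5 and XY arrays, and E9.5 overlapped E13.5 XX. The XX level was 3.10 (SE 0.30) above E11.5 at E12.5 and gained 1.5 (SE 0.30) by E13.5, where it exceeded XY by 3.20 (SE 0.30), 9.16-fold. Its second probe set was dim on every array, with a mean of 3, and moved by 0.45 from E11.5 to E13.5 XX, with a sex difference of 1.31 at E13.5.

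Tsc22d3 encodes the leucine zipper protein GILZ, a known target of the glucocorticoid receptor, at chrX:140539528-140600522. Its values declined over the unsexed ages, with 8 and 8.02 at E9.5, 6.61 and 6.56 at E10.5 and 5.29 and 6.01 at E11.5. At E12.5 it was low in XX (5.27 and 4.65) and in XY cells (5.47 and 4.30). At E13.5 the XX arrays read 9.18 and 7.99 and the XY arrays 5.58 and 5.47, so the XX arrays stood above every array from E10.5 on, and overlapped E9.5. The gain from E12.5 to E13.5 in XX cells was 3.62 (SE 0.47), place 7 of 18194 genes, and XX exceeded XY by 3.06 (SE 0.47) at E13.5, 8.34-fold. Against E11.5 the E12.5 XX level differed by -0.69 (SE 0.47), so no onset at E12.5 was seen for this gene. Without E13.5 XX replicate 1 the gain was 3.03, and without replicate 2, the array with the raised Gapdh difference, it was 4.22. Tsc22d3 has 4 probe sets, of which 3 gave between 2.84 and 3.01 from E11.5 to E13.5 XX and the dim one 0.95.

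Pwwp2b, a PWWP domain protein that binds nucleosomes and is found with the NuRD deacetylase complex, lies at chr7:139248482-139267256 and showed the widest gap between the sexes among the 10 genes. It read 6.01 and 5.31 at E9.5, 5.55 and 5.60 at E10.5 and 4.77 and 4.45 at E11.5. XX cells read 8.09 and 8.05 at E12.5 and 8.72 and 8.93 at E13.5. XY cells read 3.42 and 4.11 at E12.5 and 3.84 and 4.88 at E13.5, so that 3 of the 4 XY arrays were dim and none reached the lowest XX array. The XX level was 3.46 (SE 0.35) above E11.5 at E12.5 and the XY level differed from the same arrays by -0.84 (SE 0.35). The XX against XY difference was 4.30 (SE 0.35) at E12.5, 19.8-fold, and 4.46 (SE 0.35) at E13.5. These values come from 1 probe set. The other one read 4.90 to 5.63 in all 14 samples and differed between the sexes by 0.12 at E12.5 and 0.58 at E13.5, so the 2 probe sets disagree, and the position of each in the transcript is not given in the sources used here.

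Osbpl6 belongs to the oxysterol-binding protein relatives, which carry lipids between membranes, and lies at chr2:76406504-76600647. It was low before sex differences appear, with 5.73 and 5.30 at E9.5, 5.10 and 4.45 at E10.5 and 4.81 and 4.32 at E11.5. XX cells read 7.49 and 7.63 at E12.5 and 8.05 and 8.21 at E13.5, above all other arrays, and XY cells 5.16 and 4.56, then 6.03 and 5.69. The XX level was 2.99 (SE 0.31) above E11.5 at E12.5, and most of its height was there at that age, since the next step added 0.57 (SE 0.31). XX exceeded XY by 2.70 (SE 0.31) at E12.5 and 2.27 (SE 0.31) at E13.5. Of its 5 probe sets, 4 were higher by 2.84 to 4.16 from E11.5 to E13.5 XX, and the dimmest moved by -0.09. Among those that were higher, a probe set that was dim on every array (at most 4.47) gave 2.88. Another, which reached at most 4.77, gave 2.84. Both are differences over dim E11.5 levels, and from E12.5 to E13.5 XX these probe sets moved by 0.04 and -0.06.

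Lonrf2 encodes a RING finger and LON domain protein, a ubiquitin ligase known from neurons, at chr1:38793669-38836687. Its values were higher at each later age, with 5.43 and 4.69 at E9.5, 5.04 and 5.87 at E10.5, and 6.24 and 6.33 at E11.5. XX cells read 8.99 and 9.35 at E12.5 and 11.03 and 10.67 at E13.5, and XY cells 6.82 and 7.76, then 8.96 and 8.48. XX arrays lay above XY arrays of the same age, and E13.5 XY came close to E12.5 XX. The XX level was 2.89 (SE 0.36) above E11.5 at E12.5 and gained 1.68 (SE 0.36), and XX exceeded XY by 1.88 (SE 0.36) and 2.13 (SE 0.36) at the respective ages. A second probe set, dim before E12.5, gave 4.47 from E11.5 to E13.5 XX against 4.56 for the one used.

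Ccdc172, a coiled-coil protein reported in sperm flagella, at chr19:58511985-58553104, stood higher in each group in turn and had the smallest sex difference of the 10 genes at E13.5. It read 1.44 and 0 at E9.5, 2.15 and 2.59 at E10.5 and 5.08 and 5.05 at E11.5. XX cells read 7.34 and 7 at E12.5 and 9.42 and 8.88 at E13.5, and XY cells 6.13 and 6.64, then 8.32 and 7.78. No neighbouring groups overlapped when ordered by age and, within an age, with XY below XX. Between E10.5 and E11.5 it gained 2.70, while 8 of the 10 genes stood lower at E11.5 than at E10.5. The XX level was 2.10 (SE 0.31) above E11.5 at E12.5 and gained 1.98 (SE 0.31), against 1.32 (SE 0.31) for XY cells over the same E11.5 arrays. XX exceeded XY by 0.78 (SE 0.31) at E12.5 and 1.10 (SE 0.31) at E13.5, the latter 0.83 without E13.5 XX replicate 1, where Zbtb18 had the smaller difference at 0.74.

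Spdya (Speedy A, or RingoA) activates CDK2 without being a cyclin and is known to be needed where telomeres attach to the nuclear envelope in meiotic prophase; it lies at chr17:71526895-71589533. It was dim through most of the series: 4.12 and 4.46 at E9.5, 3.71 and 4.66 at E10.5, and 4.11 and 3.34 at E11.5. At E12.5 it read 4.85 and 4.76 in XX and 4.44 and 4.06 in XY cells. At E13.5 the XX arrays read 8.98 and 7.99, and the XY arrays 4.97 and 5.13, so the E13.5 XX arrays stood alone. The E12.5 XX level was 1.08 (SE 0.42) above E11.5. The gain in XX cells from E12.5 to E13.5 was 3.68 (SE 0.42), place 6 of 18194 genes, and XX exceeded XY by 3.44 (SE 0.42) at E13.5, 10.8-fold, against 0.55 (SE 0.42) at E12.5. Without E13.5 XX replicate 1 the gain was 3.19. Its second probe set, dim on every array, gave 2.94 for the same step, but at E12.5 it went the other way, with -0.39 against E11.5 and a sex difference of -1.06.

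Spdya, Tsc22d3 and Zbtb18 shared a feature of the E13.5 XX pair: replicate 1 stood above replicate 2 by about 1, while the other 7 genes differed less. Replicate 1 also had the higher Eif2s3y signal and replicate 2 the higher Gapdh difference. In a fit that took the Gapdh difference as covariate, the E12.5 to E13.5 gain in XX cells was 3.88 for Spdya and 3.80 for Tsc22d3, against 3.68 and 3.62, and 1.81 for Zbtb18, against 0.88. The part of the Eif2s3y signal in these levels was not tested.

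**Figure D3:**
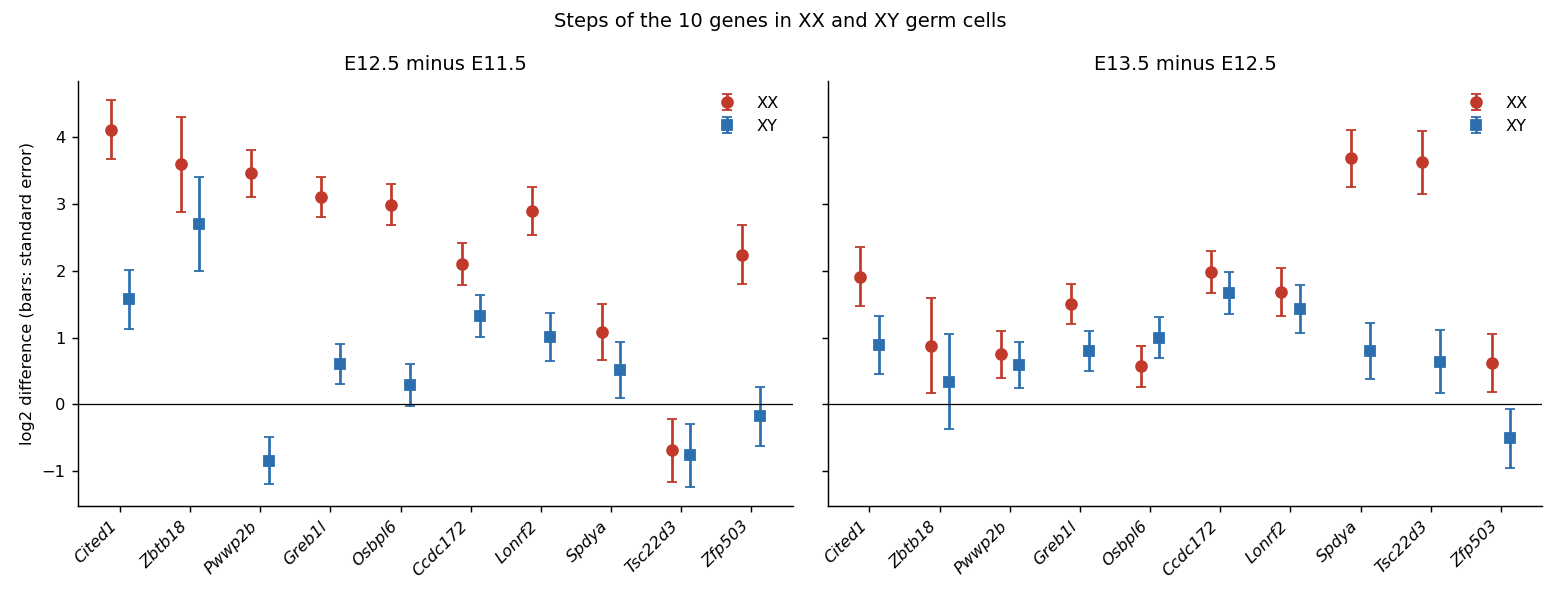
Log2 difference (y axis) of each gene (x axis) from E11.5 to E12.5 and from E12.5 to E13.5, in XX (red circles) and XY cells (blue squares). Bars are standard errors of the fit, and both E12.5 points of a gene share the E11.5 arrays. Pwwp2b differs by 3.46 in XX and -0.84 in XY cells at the first step, and Spdya and Tsc22d3 by 3.68 and 3.62 in XX cells at the second.

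As a group, the 10 genes had a median difference of 2.94 from E11.5 to E12.5 in XX cells, against 0.05 over all 18194 genes, and 1.59 from E12.5 to E13.5, against 0.03. These are the values the genes were chosen by, and nothing is drawn from them. In XY cells the median was 0.56 over the same E11.5 arrays, against 0.01 for all genes. XX exceeded XY by a median of 2.15 at E12.5 and 3.13 at E13.5, against 0.04 and 0.02. At E11.5 the median lay at -0.47 relative to E10.5, against 0.01 for all genes. A rise in XX cells can be counted from these E11.5 arrays, so the choice of the genes favours low values there. Nothing is drawn from this median either. The genes did not share one course. By the root mean square difference of centred values over the 12 arrays that exclude E9.5, the most alike pair was Greb1l and Osbpl6 (0.49) and the least alike was Ccdc172 and Zfp503 (2.38).

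The step from E12.5 to E13.5 in XY cells compares only XY arrays, and was the comparison in which the genes could be tested. The spread it is set against came from all 12 arrays of the fit, and so did the mean by which each gene's probe set was picked, XX arrays included. Of the 10 genes, 1 rose and 0 fell (limma, Benjamini-Hochberg adjusted p under 0.05 over all genes, with 2574 of all genes at an unadjusted p under 0.05), where 1.36% of the 18194 genes rose (248 genes). The gene that rose was Ccdc172, by 1.67 (SE 0.31, 95% interval 0.99 to 2.34, 3.17-fold, limma adjusted p = 0.0236), and both E13.5 XY arrays lay above both E12.5 XY arrays. That call rests on few arrays: it was lost in 6 of the 12 fits that each left out 1 array, namely either array of E12.5 XX, E12.5 XY or E13.5 XY, with a gain of 1.40 to 1.94 throughout. It was also lost when only the compared arrays were fitted (adjusted p = 0.0634), with all 14 arrays (0.0795) and with the Gapdh value in the model (0.0683).

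Lonrf2 stood 1.43 (SE 0.36) higher at E13.5 than at E12.5 in XY cells and did not pass (limma adjusted p = 0.0764), although its XY pairs did not overlap. It passed with the mean of both its probe sets (0.0286), with array weights (0.0323) and without either E10.5 array (0.0349 and 0.0358). The other 8 genes did not pass under any setting tried. They differed by 1 for Osbpl6 (adjusted p = 0.156), 0.89 for Cited1 (0.398), 0.80 for Greb1l (0.235) and Spdya (0.441), 0.64 for Tsc22d3 (0.608), 0.59 for Pwwp2b (0.501), 0.34 for Zbtb18 (0.896) and -0.51 for Zfp503 (0.681). When 1 array was left out these values ranged from 0.28 to 1.51 for Cited1, 0.36 to 1.24 for Greb1l, 0.70 to 1.30 for Osbpl6, 0.61 to 0.99 for Spdya, 0.05 to 1.22 for Tsc22d3 and 0.08 to 1.12 for Pwwp2b. It turned the sign for Zbtb18 (-0.12 to 0.80) and Zfp503 (-1.03 to 0.01). With the Gapdh covariate Zbtb18 was at 1.75 and Pwwp2b at 0.29. With probe sets averaged Greb1l was at -0.10, Spdya at 0.08 and Tsc22d3 at 0.16, and with every probe set as its own feature Tsc22d3 was at -1.19. Zbtb18, Zfp503, Greb1l and Tsc22d3 thus had no settled direction in this step. With 2 arrays a group, a p that misses the threshold does not show that a gene stayed the same. Over the 10 genes the median was 0.80, against 0.05 for all genes. Of the 381 genes that passed in either direction, 65.1% rose, and 54% with quantile normalization. The count itself fell to 16 without E12.5 XY replicate 1, 48 and 58 without E13.5 XY replicate 1 or 2, and 97 with the Gapdh covariate.

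To see whether genes of the same families moved as well, 13 relatives were read on the same scale: Cited2, Cited4, Zbtb42, Pwwp2a, Greb1, Osbpl3, Osbpl7, Lonrf1, Lonrf3, Tsc22d1, Tsc22d2, Tsc22d4 and Zfp703. They were not chosen for a rise, and their p-values come from the fit over all genes. None of the 13 passed from E11.5 to E12.5 in XX cells, where 1.41% of all genes rose, or from E12.5 to E13.5 in XX cells, where 1.31% rose (limma, with 2443 and 2729 genes at an unadjusted p under 0.05). Their medians in these steps were 0.34 and 0.05. Of the genes that passed in the first of these steps, 76% rose, and 60.9% with quantile normalization. Both steps lose most calls over all genes when an array is left out: the 338 of the first fell to 23 without E12.5 XX replicate 2, 35 without replicate 1 and 64 without E11.5 replicate 2. The 341 of the second fell to 0 without E12.5 XX replicate 2, 11 without replicate 1, 1 without E13.5 XX replicate 1 and 89 without its replicate 2.

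Between XX and XY cells at E12.5, 1 of the 13 relatives was higher in XX cells and 0 lower, where 1.73% of all genes were higher (72.2% of the calls, and 61.9% with quantile normalization). It was Osbpl3, a lipid-transfer relative of Osbpl6, which read 8.54 and 8.59 in XX and 6.58 and 7.03 in XY cells, after 7.64 and 7.61 at E11.5. The difference was 1.76 (limma adjusted p = 0.00359), a call lost with the mean of its probe sets and without either E12.5 XX array. Zbtb42 differed by 1.02 and did not pass.

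Between the sexes at E13.5, 6.00% of all genes were higher and 4.19% lower in XX cells, and of the 13 relatives 2 were higher and 1 lower. Lonrf1, which carries the same RING and LON domains as Lonrf2, read 10.46 and 10.75 in XX and 9.18 and 9.27 in XY cells, a difference of 1.38 (limma adjusted p = 0.00296) that passed whichever array was left out and under every other setting tried. Tsc22d4, a leucine zipper relative of Tsc22d3, read 8.67 and 8.92 in XX and 7.78 and 7.69 in XY cells, a difference of 1.06 (adjusted p = 0.00592). At E11.5 Lonrf1 had read 10.62 and 10.51 and Tsc22d4 8.69 and 8.60. For both genes the E13.5 XX level thus lay near E11.5 and the XY level below it, unlike the XX rises of Lonrf2 and Tsc22d3. No single XY step of either passed. Cited2 went the other way to Cited1, with 6.70 and 6.74 in XX and 8.18 and 8.61 in XY cells, a difference of -1.68 (adjusted p = 0.00758). Without E13.5 XY replicate 2 neither Tsc22d4 nor Cited2 passed, nor did Tsc22d4 without E13.5 XX replicate 2 or Cited2 without E13.5 XX replicate 1, and Cited2 was also lost with the mean of its probe sets. In XY cells from E12.5 to E13.5, where 1.36% of all genes rose, 3 of the 13 relatives rose: Cited2 by 1.82 (adjusted p = 0.0193), Osbpl3 by 1.61 (0.0104) and Lonrf3 by 1.41 (0.0378). Leaving out E12.5 XY replicate 1 or E13.5 XY replicate 2 ended each of these 3 calls, as did fitting only the arrays compared and the Gapdh covariate. Lonrf3 was lost in 8 of the 12 fits without 1 array, and Cited2 also without E13.5 XY replicate 1. Greb1, Pwwp2a, Osbpl7, Zfp703, Tsc22d1, Tsc22d2 and Cited4 did not pass in any comparison made. Greb1 read 5.68 to 6.41 on the XX and XY arrays, where Greb1l differed by 3.20 between the sexes at E13.5.

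**Figure D4:**
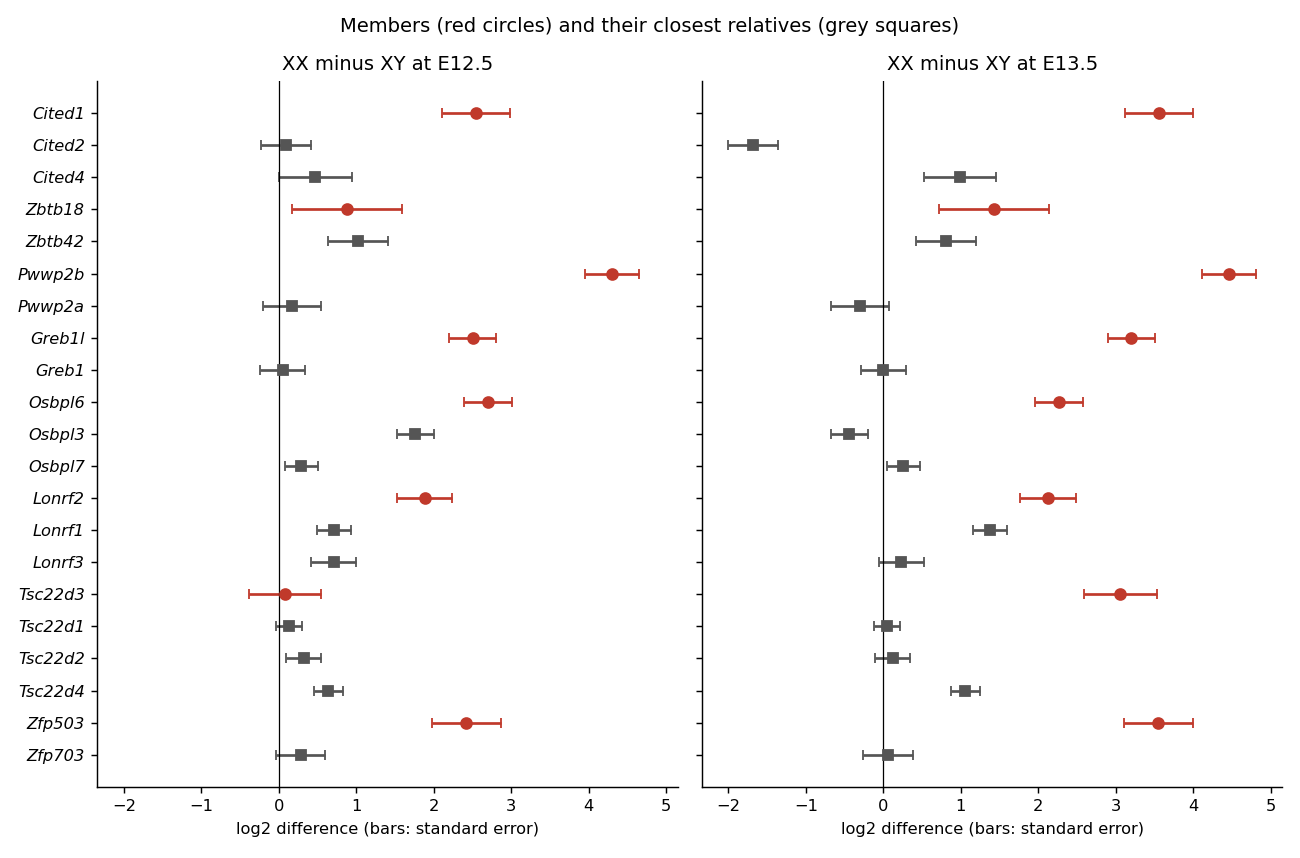
XX minus XY log2 difference (x axis) at E12.5 and at E13.5 for 8 of the 10 genes (red circles) and their 13 relatives (grey squares), with standard errors as bars. Osbpl3 at E12.5 (1.76), Lonrf1 (1.38), Tsc22d4 (1.06) and Cited2 (-1.68) at E13.5 passed the test, and the red points were not tested.

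Genes of pathways related by topic to the 10 genes were read from lists, which were chosen with earlier results of these data known. Whether any of these pathways acts on the 10 genes was not tested. Of 20 genes of meiotic entry and prophase, 7 rose from E11.5 to E12.5 in XX cells, among them Stra8 by 5.89 (limma adjusted p = 0.00254) and Rec8, a meiotic cohesin, by 2.93 (0.000895), and 13 rose from E12.5 to E13.5, led by Meiob by 3.85 (0.0146) and Meioc by 3.40 (0.00899). The list's medians were 1.03 and 1.62, against 0.05 and 0.03 for all genes, of which 1.41% and 1.31% rose in these steps. In XY cells from E12.5 to E13.5, the step that Ccdc172 passed, 6 of the 20 rose, where 1.36% of all genes rose. Sycp1, a synaptonemal complex protein, was higher by 2.63 (limma adjusted p = 0.00529) and Rec8 by 1.87 (0.00312). XX exceeded XY for 6 of the 20 at E12.5 and 12 at E13.5, where 1.73% and 6.00% of all genes were higher in XX cells. Rec8 at E12.5 passed whichever array was left out, Stra8 was lost without E12.5 XX replicate 2, and Meioc and Meiob were lost from E12.5 to E13.5 without either E12.5 XX array or E13.5 XX replicate 1, and Meiob also without replicate 2. In XY cells Rec8 passed throughout, and Sycp1 was lost without E12.5 or E13.5 XY replicate 1.

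Of 12 genes of the BMP response, 5 rose from E11.5 to E12.5 in XX cells, among them Zglp1 by 2.50 (limma adjusted p = 0.00254) and Gata2 by 2.08 (0.00138), both transcription factors, and 1 (Msx1) by E13.5. In XY cells 4 of the 12 fell from E11.5 to E12.5, where 0.676% of all genes fell: Id1, an inhibitor of bHLH factors, (-2.78, adjusted p = 0.00544), Msx2 (-1.67, 0.00618), Gata2 (-1.5, 0.01) and Id3 (-1.10, 0.0174). Pwwp2b differed by -0.84 in the same XY step, against the same E11.5 arrays. XX exceeded XY for 8 of the 12 genes at E12.5 and 7 at E13.5, with medians of 1.85 and 2.02. Over all genes, 1.73% and 6.00% were higher in XX cells at these ages, and 1.41% and 1.31% rose in the XX steps above. In XX cells Gata2 passed whichever array was left out and Zglp1 was lost without E12.5 XX replicate 2. In XY cells Id1 was lost without E12.5 XY replicate 2, Msx2 without that array or E11.5 replicate 2, Gata2 without any of the 4 arrays compared, and Id3 without these or either E12.5 XX array.

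Beside Spdya, 8 genes of CDK2 and of meiotic telomere attachment were measured. From E12.5 to E13.5 in XX cells, 2 of the 8 rose: Terb1, which tethers telomeres, from 5.47 and 5.07 to 8.66 and 8.08 (3.10, limma adjusted p = 0.00275), and Majin, its partner in the nuclear membrane, from 4.56 and 4.52 to 6.50 and 6.70 (2.06, 0.0125). XX exceeded XY at E13.5 for 4 of the 8, Terb1 by 2.58 (limma adjusted p = 0.00048), Majin by 2.45 (0.000506), Terb2 by 1.55 (0.0224) and Ccne1, a cyclin of CDK2, by 0.80 (0.026). Over all genes, 1.31% rose in that XX step and 6.00% were higher in XX cells at E13.5. At E12.5, 0 of the 8 differed between the sexes (limma, with 2328 of all genes at an unadjusted p under 0.05), and Spdya itself differed by 0.55 there. Between the sexes Terb1 and Majin passed whichever array was left out, Terb2 was lost without replicate 1 of either E13.5 group, and Ccne1 without any array of E13.5 or of E12.5 XX. The Terb1 gain was lost without E12.5 XX replicate 2 or E13.5 XX replicate 1, and the Majin gain without any of the 4 arrays compared.

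Beside Tsc22d3, 14 genes of the glucocorticoid response were read. Nr3c1, the glucocorticoid receptor, read 6.72 and 6.30 at E11.5, 8.36 and 8.50 in XX and 7.21 and 7.16 in XY cells at E12.5, and 10.04 and 9.31 in XX and 7.43 and 7.68 in XY cells at E13.5. XX exceeded XY by 1.25 (limma adjusted p = 0.0454) at E12.5, a call lost in 7 of the 12 fits without 1 array, and by 2.12 (0.000826) at E13.5, which passed in all of them. Tsc22d3 itself differed by 0.08 (SE 0.47) between the sexes at E12.5, and whether Nr3c1 acts on it was not tested. At E13.5 Nr3c2, the mineralocorticoid receptor, was higher in XX cells by 2.86 (0.00942), and Sgk1, another known glucocorticoid target, lower (-2.10, 0.00114), with 8.16 and 8.02 in XX and 10.44 and 9.94 in XY cells. Nr3c2 was lost without E13.5 XX replicate 1. The other 11 genes of the list did not pass at E13.5, and the median of the list was -0.01. Over all genes, 6.00% were higher and 4.19% lower in XX cells at that age.

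Of 3 measured steroid receptors, Esr1 is the estrogen receptor that induces Greb1 in other tissues, and whether it acts on Greb1l was not tested. Esr1 rose in XY cells from E12.5 to E13.5 by 2.19 (limma adjusted p = 0.0471) and was lower in XX cells at E13.5 (-2.26, 0.0132). The first of these calls was lost in 10 of the 12 fits without 1 array, and the second without E13.5 XX replicate 2 or either E13.5 XY array. Of 11 retinoic acid genes, 3 were higher in XX cells at E13.5 (Rarb by 2.72, Crabp1 by 2.42, Crabp2 by 1.83) and 2 lower (Aldh1a1, -3.10, and Aldh1a2, -1.62). The shares over all genes at that age were 6.00% higher and 4.19% lower. Aldh1a2 passed whichever array was left out. Crabp1 was lost without any E13.5 or E12.5 XX array, Rarb without either E13.5 XX array or E13.5 XY replicate 2, Aldh1a1 without either E13.5 XX array or E13.5 XY replicate 1, and Crabp2 without E13.5 XX replicate 1 or XY replicate 2. Of 6 partners of CITED1, Tfap2c, a germ cell transcription factor, fell in both XY steps (-1.15 and -0.95) and was higher in XX cells by 1.16 at E13.5 (adjusted p = 0.00475), and the other 5 did not pass. The Tfap2c calls in XY cells were lost in 6 and 10 of the 12 fits without 1 array, and the sex difference without E13.5 XY replicate 2. Of 10 NuRD and H2A.Z partners of PWWP2B, 0 passed in the 7 comparisons (limma, with 1287 to 4063 of all genes at an unadjusted p under 0.05), and their median between the sexes was 0.22 at E12.5 and 0 at E13.5.

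Genes of the surrounding gonad were read for the same arrays. Marker signals were summed on the linear scale, and the sums are given as log2. The sums of 14 gonadal somatic markers ranged from 9.49 to 9.69 at E13.5 in XX and 8.95 to 9.08 in XY cells. At E11.5 they ranged from 8.77 to 8.94. The 8 markers of female supporting cells summed to 9.45 in XX and between 9.58 and 9.93 in XY cells at E13.5. Of the 14, Lhx2 rose from E11.5 to E12.5 in XX cells by 2.07 (limma adjusted p = 0.0424), a call lost in 9 of the 12 fits without 1 array. Nr2f1 rose from E12.5 to E13.5 in XX cells by 2.56 (0.0159), lost without either E12.5 XX array or E13.5 XX replicate 1. Both were higher in XX cells at E13.5, Lhx2 by 3 (0.00159) and Nr2f1 by 2.98 (0.00103), whichever array was left out. Of the 8, Rspo1 rose from E11.5 to E12.5 in both sexes, by 2.92 in XX (0.012) and 2.93 in XY cells (0.0147), and in XY cells again by E13.5 (2.75, 0.0134), each call lost in 3 of the 12 fits. It read 7.86 and 7.76 in XX and 8.83 and 9.06 in XY cells at E13.5, a difference that did not pass. Irx3, Bmp2 and Wnt4 were higher in XX cells at E13.5, the last lost in 8 of the 12 fits and Bmp2 without any E13.5 array, while Foxl2 read 5.76 and 5.50 in XX and 5.53 and 5.49 in XY cells, and Fst 4.80 and 5.03 in XX and 5.09 and 6.29 in XY cells. Of 10 markers of male supporting and Leydig cells, 4 were lower in XX cells at E13.5 (Cst9, -6.44, Ptgds, -3.41, Cyp17a1, -2.64, and Hsd3b1, -2.06). The Hsd3b1 call was lost in 7 of the 12 fits. Cst9 (-4.89, limma adjusted p = 0.00679) and Ptgds (-1.91, 0.0405) were also lower at E12.5. From E11.5 to E12.5 Dmrt1 rose in XX cells by 1.84 (limma adjusted p = 0.0384) and Ptgds in XY cells by 2.13 (0.0427), each lost in 9 of the 12 fits. The 10 markers summed to between 11.05 and 11.52 in XX and 11.24 and 11.65 in XY cells at E13.5. Such a sum follows the brightest genes, and 6 of the 10 averaged under the table median in XX and 2 in XY cells at that age. Close sums therefore do not show equal amounts of these cell types. Of 7 markers of mesonephros and kidney, Gata3 was higher in XX cells at E13.5 and Lhx1 and Sall1 lower. At E12.5 Lhx1 was already lower in XX cells (-1.84, limma adjusted p = 0.000831) and Gata3 higher (1.84, 0.0397), the latter lost in 9 of the 12 fits. The 7 markers summed to between 9.17 and 9.23 in XX and 10.81 and 10.99 in XY cells at E13.5. Of 11 immediate early and heat shock genes, Hspa1a, Ier3 and Dnajb1 were lower in XX cells at E13.5. At that age 6.00% of all genes were higher and 4.19% lower in XX cells. No marker of endothelium or blood passed between the sexes at either age (limma, with 2328 and 4063 genes at an unadjusted p under 0.05). The part of other cell types in the levels of the 10 genes was not tested.

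For each of the 10 genes, the non-members with the most similar course were found by the root mean square (RMS) log2 difference of centred values over the same 12 arrays. Fut4, a fucosyltransferase, was nearest to Greb1l (0.31) and to Cited1 (0.64), and was level with Irx4 as nearest to Osbpl6 (0.50). It read 7.11 and 7.48 in XX and 4.97 and 4.86 in XY cells at E12.5. Coch was second nearest to Greb1l (0.47) and, with Gxylt2, nearest to Lonrf2 (0.46), while Meioc was second nearest to Cited1 (0.66). The nearest genes to Spdya were Zfp541 (0.49) and Terb1 (0.51), and those to Tsc22d3 were Mei1 (0.50) and H2-K1 (0.52). Zfp503 lay nearest to Limch1 (0.37) and Id2 (0.45), Pwwp2b to Rhbdl3 (0.40) and Met (0.62), Zbtb18 to 1810010H24Rik (0.57) and Gpt2 (0.59), and Ccdc172 to Tcfl5 (0.59) and Tdrd7 (0.71). Genes near a member in this sense share its arrays, and no test was made.

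Of the 22 probe sets, 12 had both E13.5 XX arrays above every array outside the XX groups, and 5 stayed below the table median on every array. The genes were chosen for rises in XX cells, and the shares over all probe sets were not counted, so nothing is drawn from these counts. The probe sets used for Greb1l, Tsc22d3 and Zfp503 were not among the 12 because of E9.5 arrays. Of the 10 genes, 7 have more than 1 probe set. For Osbpl6, Lonrf2, Tsc22d3 and Zfp503 at least 1 further probe set moved in the same direction in both XX steps. For Spdya the only other one did so from E12.5 to E13.5 but not at E12.5, and for Pwwp2b and Greb1l the only other one moved by under 0.5 from E11.5 to E13.5 XX. On the X chromosome lie 2 of the 10 genes, Cited1 and Tsc22d3, against 3.41% of measured genes (618 of 18146).

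**Figure D5:**
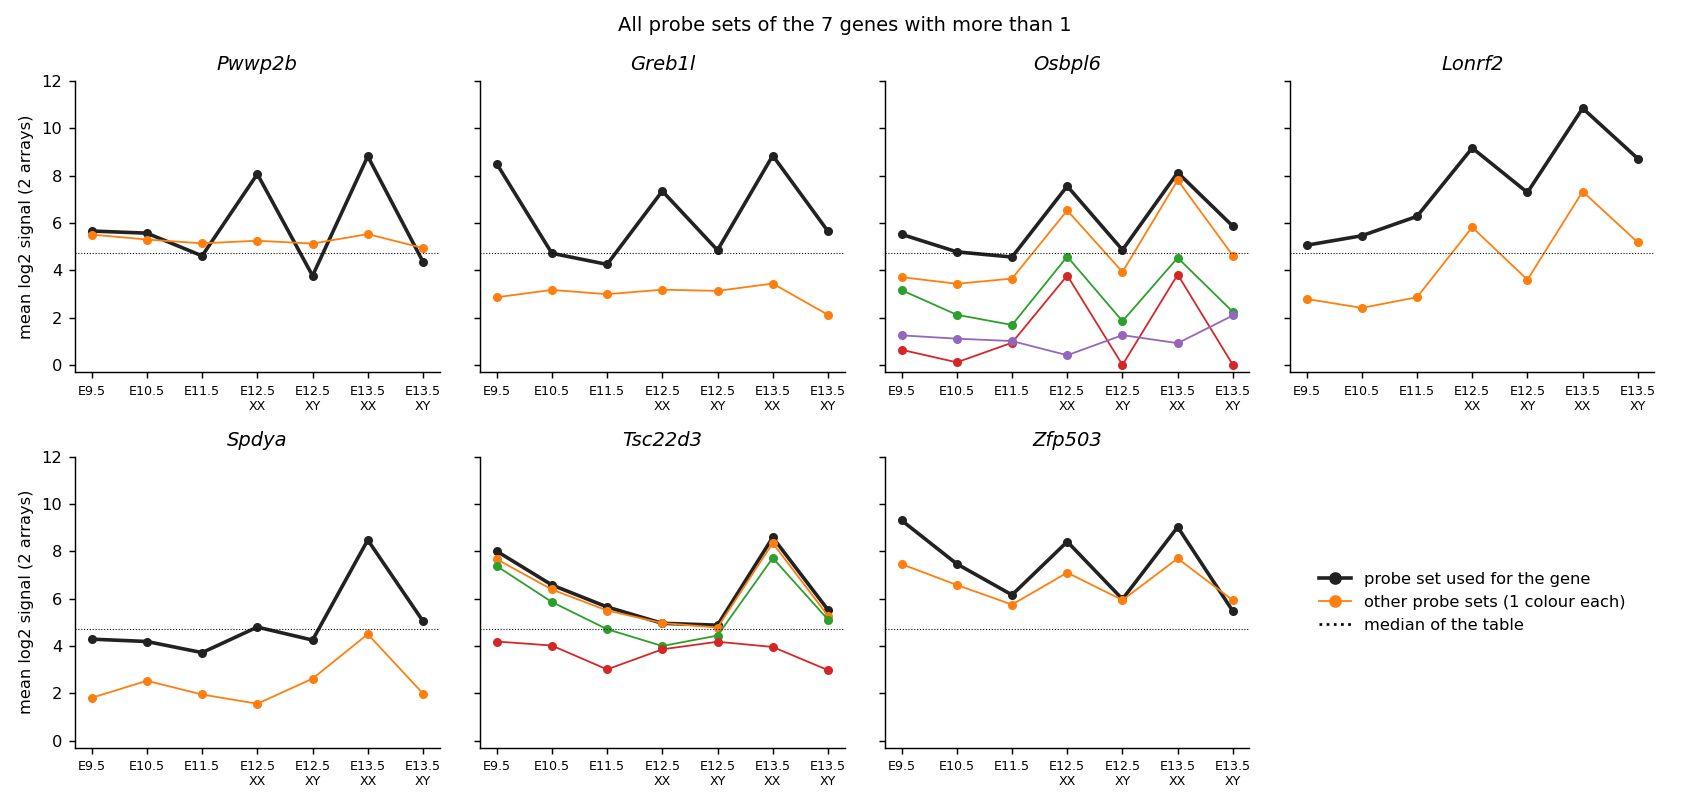
Mean log2 signal of 2 arrays (y axis) in the 7 groups (x axis) for every probe set of the 7 genes that have more than 1. The thick black line is the probe set used and coloured lines are the others. From E11.5 to E13.5 XX the second probe sets of Pwwp2b and Greb1l differ by 0.38 and 0.45, against 4.22 and 4.6 for the ones used.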

How the data were processed

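The authors deposited log2 probe set signals, normalized over all 14 arrays together, per the labels and the series' design text. The software is not given in the sources used here, nor are the background correction and the summarization. The values, 0 to 14.04, show a log2 scale. Of 45101 probe sets, 34958 list 1 gene symbol, 932 list several and 34754 matched RefSeq by Entrez identifier. Each of 18194 genes was represented by the probe set whose mean was highest over the 12 arrays that exclude E9.5.

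Fits used limma 3.58.1 under R 4.3.3 (lmFit and eBayes, intensity trend, 1 mean per group, 6 residual degrees of freedom). P-values (both sides) were adjusted by Benjamini-Hochberg over all genes, threshold 0.05. The fit was tested on simulated data. The number of arrays limits the precision. The members and lists were chosen with earlier results of these data known. The text names all members, their relatives, the 2 nearest genes of each, passing list members (up to 4 a list, largest first) and defining markers; some list genes are cited for a comparison and not by size. Settings tried were quantile normalization, median centring, a filter and a floor (25th percentile) on dim genes, other probe set rules, no trend, array weights, other arrays, a replicate block, a Gapdh covariate and leaving out each array. Replicate numbers were not used as pairs in the main fit.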

Additional observations from a re-analysis of the deposited data

Results flagged for a closer look

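Among the 10 genes and their 13 relatives, steps with opposite signs in the sexes were seen for 4 genes, where both arrays of one sex lay above both arrays of the earlier age and both arrays of the other sex lay below. Zfp503 is not among them, since its E12.5 XY arrays lay between the E11.5 arrays. The share of all genes that meets this rule was not counted, so nothing is drawn from the number of genes. Pwwp2b moved by 3.46 in XX and -0.84 in XY cells from E11.5 to E12.5, a gap of 4.30 that was not tested because the gene was chosen for its XX rise. Its other probe set did not show this, with means of 5.14 at E11.5 and of 5.25 in XX and 5.13 in XY cells at E12.5. Osbpl3 moved by 0.94 in XX and -0.82 in XY cells in the same step, a gap of 1.76 (limma adjusted p = 0.00359 as the E12.5 sex difference, since the steps share E11.5). Zbtb42 moved by 0.54 and -0.48, a gap of 1.02 that did not pass. From E12.5 to E13.5 Osbpl3 moved by -0.59 in XX and 1.61 in XY cells, a gap of -2.20 that did not pass (adjusted p = 0.114), and Tsc22d4 by 0.21 and -0.21, a gap of 0.42 that did not pass (adjusted p = 0.847).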

How the results depend on the processing

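In XY cells from E12.5 to E13.5, 1 of the 10 genes was called higher as reported, 2 with a gene's probe sets averaged and with array weights, 0 with only the arrays compared, with all 14 arrays and with the Gapdh covariate, and 0 to 2 when 1 array was left out. None was called lower under any setting tried (limma, where 2574 genes had an unadjusted p under 0.05). Calls among the 13 relatives over 7 comparisons numbered 7 as reported, 4 with probe sets averaged, with only the arrays compared and with the Gapdh covariate, and 2 to 7 without 1 array (2 without E13.5 XY replicate 2, 4 without E12.5 XY replicate 1). The meiotic list had 44 calls, 29 without the intensity trend and 18 to 59 without 1 array (18 without E12.5 XX replicate 2, 21 without replicate 1, 23 without E13.5 XX replicate 1, 29 without E12.5 XY replicate 1 or E13.5 XY replicate 2). The BMP list had 26 calls, 16 with only the arrays compared and 16 to 27 without 1 array (16 without E12.5 XX replicate 2). Some settings gave more calls: with array weights the relatives had 10, the meiotic list 61 and the BMP list 28. With every probe set as its own feature the relatives had 9. Of 1645 untested values of the 10 genes under other settings, 80 moved by at least 1 standard deviation and 23 changed sign. Sign changes were confined to E11.5 against E10.5, to XY cells at E12.5 against E11.5 and, for Spdya and Tsc22d3, to the sexes at E12.5.

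As to pairing, 2 of 15 pairs of groups had same-numbered arrays that deviated together across genes (r over 0.1, range -0.189 to 0.275). Replicate 2 had the higher Gapdh difference in every group from E10.5 on. Whether same-numbered arrays were handled together was not tested, and the main fit did not pair them. With the replicate block 1 of the 10 genes was called in the XY step, Ccdc172 (1.67, limma adjusted p = 0.0359), and 336 genes in all, against 381.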
